A study of Mus musculus with 4 samples.

Results

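VEGF and angiopoietin signalling was represented by 9 genes, of which 5 encode receptors (Kdr, Flt1, Flt4, Tek and Tie1) and 4 encode ligands (Vegfa, Vegfc, Angpt1 and Angpt2). The members were taken by gene symbol from the 27998 genes of the count tables, and all 9 had UMIs (unique molecular identifiers, which count captured transcripts) in each of the 4 libraries. The libraries were droplet single-cell RNA-seq of the Mesp1 lineage of the mouse, 1 library at each of 4 embryonic stages, and 4 values in a row below are always in stage order. All embryos were Mesp1Cre;Rosa26-GFPflox/+ on the Swiss Webster strain, in which Cre made from the Mesp1 locus of early mesoderm turns on GFP permanently, and embryos of a stage were pooled before live GFP-positive cells were sorted. The 2 early libraries (E8.0 and E8.25) came from the upper part of the body and the 2 late libraries (E9.5 and E10.5) from the pharyngeal apparatus and heart, so stage, dissected region and library cannot be told apart between the early and late pair. No group was treated or mutant. Cells that never expressed Mesp1, such as endoderm, ectoderm and neural crest, should be few in a sort of this design. The authors nonetheless labelled a cluster of this lineage as neural progenitor cells, and the number of such cells in these libraries was not counted. Ligand made by tissues outside the Mesp1 lineage was not measured separately.

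In this family VEGF ligands act on receptor tyrosine kinases at the endothelial cell surface. Kdr (VEGFR2) carries most of the signal of Vegfa for endothelial specification and growth, Flt1 (VEGFR1) binds Vegfa tightly and acts largely as a decoy in the embryo, and Flt4 (VEGFR3) is the main receptor of Vegfc, best known from lymphatic vessels but also present in early blood vessels. Tek (Tie2) is the receptor of the angiopoietins, with Angpt1 as an agonist and Angpt2 as a context-dependent antagonist, and Tie1 is its partner receptor with no ligand of its own that is firmly established. Kdr is also known as an early marker of mesoderm that gives rise to blood, vessels and heart.

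Cells were assigned to compartments by marker genes, none of which was a member. A marker counted as raised in a cell at 1 or more UMIs per 10000 UMIs, and a cell entered the endothelial gate (Cdh5, Pecam1 and 6 others), the cardiomyocyte gate (Tnnt2, Actn2 and 6 others) or the mesenchyme gate (Pdgfra, Twist1 and 6 others) with at least 4 of 8 markers raised. The kept libraries held 2884 to 7525 cells with a median of 15205 to 35216 UMIs per cell, and 16 to 88 cell barcodes were shared between any 2 libraries. The endothelial gate held 364, 158, 201 and 372 cells, the cardiomyocyte gate 404, 82, 559 and 251 cells, and the mesenchyme gate 686, 184, 365 and 1852 cells. Between 49.8% and 77.8% of cells opened no gate, and 1197, 493, 567 and 1189 cells lay 1 marker below the mesenchyme gate against 511, 157, 275 and 990 exactly at it, so that this gate cut a continuous range. Each gate carried its own markers in every library, with summed endothelial markers at 2205 to 3222 CPM (UMIs of the gene per 1e+06 UMIs of the same cells) in the endothelial gate against 77.3 to 148 in the cardiomyocyte gate and 72.0 to 126 in the mesenchyme gate. Haemoglobin transcripts made up 0.308% of UMIs in the endothelial gate at E8.25 and 0.506% at E10.5, against 0.0127% at E8.0 and 0.00378% at E9.5. The cardiomyocyte and mesenchyme gates held similar shares, 0.283% and 0.293% at E8.25 and 0.504% and 0.512% at E10.5. The part of haemoglobin in the levels of the members was not tested. Levels in the blood gate are given below for comparison, and whether blood cells of these stages lack the members was not tested. Haemoglobin made up 4.88%, 11.3% and 46.0% of UMIs in the blood gate at E8.0, E8.25 and E10.5. CPM of every other gene is lowered there by that part, most at E10.5. That gate held 2 cells at E9.5, which is too few to serve. With 1 library at a stage no stage could be tested against another, the one test across stages sets the late pair against the early pair, and intervals on single levels are exact 95% Poisson intervals that cover counting error only.

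Because the receptors moved together between compartments, the DNA ahead of their start sites is shown for those with a match to an ETS core (CCGGAA or CAGGAA on either strand), the motif read by the endothelial factors Etv2, Fli1 and Erg. RefSeq promoter windows (GRCm38.p6, which is the mm10 build of the files) were at hand for 7 of 9 members, and the 250 bases before the start held the core in 3 of 5 receptors, where 34.9% of 27025 promoter windows of that length held it. Tie1 lies at chr4:118471191-118489849 on the minus strand, and its 250 upstream bases (chr4:118489850-118490099) are printed in gene direction with the match in capitals, starting 209 bases before the start site.

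Tie1 upstream: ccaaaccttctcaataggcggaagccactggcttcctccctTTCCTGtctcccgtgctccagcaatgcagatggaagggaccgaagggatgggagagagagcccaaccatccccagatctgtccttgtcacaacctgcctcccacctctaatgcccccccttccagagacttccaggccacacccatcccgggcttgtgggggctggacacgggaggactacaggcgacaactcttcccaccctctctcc

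For Kdr (chr5:75932827-75979072, minus strand) and Tek (chr4:94739086-94874976, plus strand) the window overlapped the outermost gene model, so 30 bases around each match are given, again in gene direction with the core in capitals. The Kdr match began 153 bases before the start site (chr5:75978591-75978620), and the Tek matches began 89 bases (chr4:94739188-94739217) and 59 bases (chr4:94739218-94739247) before it.

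Kdr match: cgcccggcacagTTCCGGggtagtggggga
Tek match at 89: cttgttattcaaTTCCTGgcctatgagagg
Tek match at 59: atacccctattgTTCCTGaaaatgctgacc

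The windows of Flt1 (chr5:147561604-147726438) and Flt4 (chr11:49609679-49652739) held no such letters, although both genes followed the same compartment pattern as the other receptors. Vegfa (chr17:46016993-46032377) held 1 match, 210 bases before its start, and Vegfc (chr8:54077532-54186454) held none. These matches are letters in a window and were not tested as binding sites.

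All 5 receptors were higher in the endothelial gate than in the cardiomyocyte and mesenchyme gates in all 4 libraries, and for none of them did the endothelial range overlap that of another gate. The share of all tested genes with that pattern was not counted, so it is given as a description only. Of the 11719 genes tested with edgeR's quasi-likelihood test on counts summed by library and gate, 22.9% were called higher in the endothelial than in the cardiomyocyte gate and 21.7% higher than in the mesenchyme gate, and a call alone was therefore common. The median log2 fold change of the 5 receptors was 5.26 against cardiomyocytes and 5.44 against mesenchyme, beside 0.01 and −0.01 over all genes tested.

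Kdr, the main signalling receptor, was counted in the endothelial gate at 307, 217, 166 and 198 CPM. In the cardiomyocyte gate the same gene stood at 7.47, 12.4, 12 and 37.7 CPM and in the mesenchyme gate at 28.2, 15.3, 5.02 and 5.58 CPM, in stage order. Every endothelial value lay above every value of the other gates, and the highest values of the other gates fell at opposite ends of the series, E10.5 in cardiomyocytes and E8.0 in mesenchyme. Blood cells held 3.75, 4.67 and 1.15 CPM at E8.0, E8.25 and E10.5, below both gates of the same library. The difference was called against cardiomyocytes (log2 fold change 3.71 ± 0.59 (SE), adjusted p = 7.60e-04) and against mesenchyme (log2 fold change 4.26 ± 0.58 (SE), adjusted p = 3.70e-04).

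Flt1, the decoy receptor, stood in the endothelial gate at 205, 214, 128 and 132 CPM. Its cardiomyocyte levels were 4.77, 7.50, 4.20 and 2.0 CPM and its mesenchyme levels 1.88, 1.53, 4.52 and 7.55 CPM, the latter higher in the late pair than in the early pair. Endothelial cells exceeded cardiomyocytes (log2 fold change 5.26 ± 0.49 (SE), adjusted p = 2.85e-05) and mesenchyme (log2 fold change 5.44 ± 0.48 (SE), adjusted p = 2.51e-05).

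Flt4, the Vegfc receptor, was counted at 60.7, 61.1, 35.5 and 41.3 CPM in the endothelial gate. Outside it, 1 to 13 UMIs were counted in a library's cardiomyocyte or mesenchyme gate, which is 0.200 to 1.87 CPM and 0.167 to 0.851 CPM respectively. Blood cells of the E8.0, E8.25 and E10.5 libraries held 0.500, 1.40 and 0.107 CPM. The counts outside the endothelial gate were thus within 1.87 CPM, beside up to 1.40 CPM in blood. The log2 fold change was 6.67 ± 0.30 (SE) against cardiomyocytes (adjusted p = 3.81e-07 in edgeR's test) and 6.46 ± 0.27 against mesenchyme (adjusted p = 3.36e-07).

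Tek, the angiopoietin receptor, stood in endothelial cells at 62.5, 68.7, 85.5 and 95.9 CPM. In cardiomyocytes it was counted at 8.24, 12.7, 2.90 and 1.5 CPM, higher in both early libraries, and in mesenchyme at 0.549, 6.47, 2.51 and 2.19 CPM, with its highest value at E8.25. Blood cells held 3.50, 2.68 and 0.716 CPM at E8.0, E8.25 and E10.5. Endothelial cells were higher than cardiomyocytes (log2 fold change 3.84 ± 0.55 (SE), adjusted p = 4.45e-04) and than mesenchyme (log2 fold change 5.13 ± 0.58 (SE), adjusted p = 1.21e-04).

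Tie1, the partner of Tek, reached 32.4, 41.2, 65.7 and 84.6 CPM in the endothelial gate. Between 1 and 28 UMIs of Tie1 were found in any cardiomyocyte or mesenchyme gate, at most 1.08 CPM, beside 0.250 to 0.759 CPM in blood of the 3 libraries where that gate could be used. Of the 9 members it had the largest fitted difference in both comparisons (log2 fold change 7.34 ± 0.32 (SE), adjusted p = 3.18e-07 against cardiomyocytes, and log2 fold change 6.64 ± 0.27 (SE), adjusted p = 3.20e-07 against mesenchyme). The calls of all 5 receptors held under all 14 alternative settings tried in both comparisons, each library left out in turn included.

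**Figure D1:**
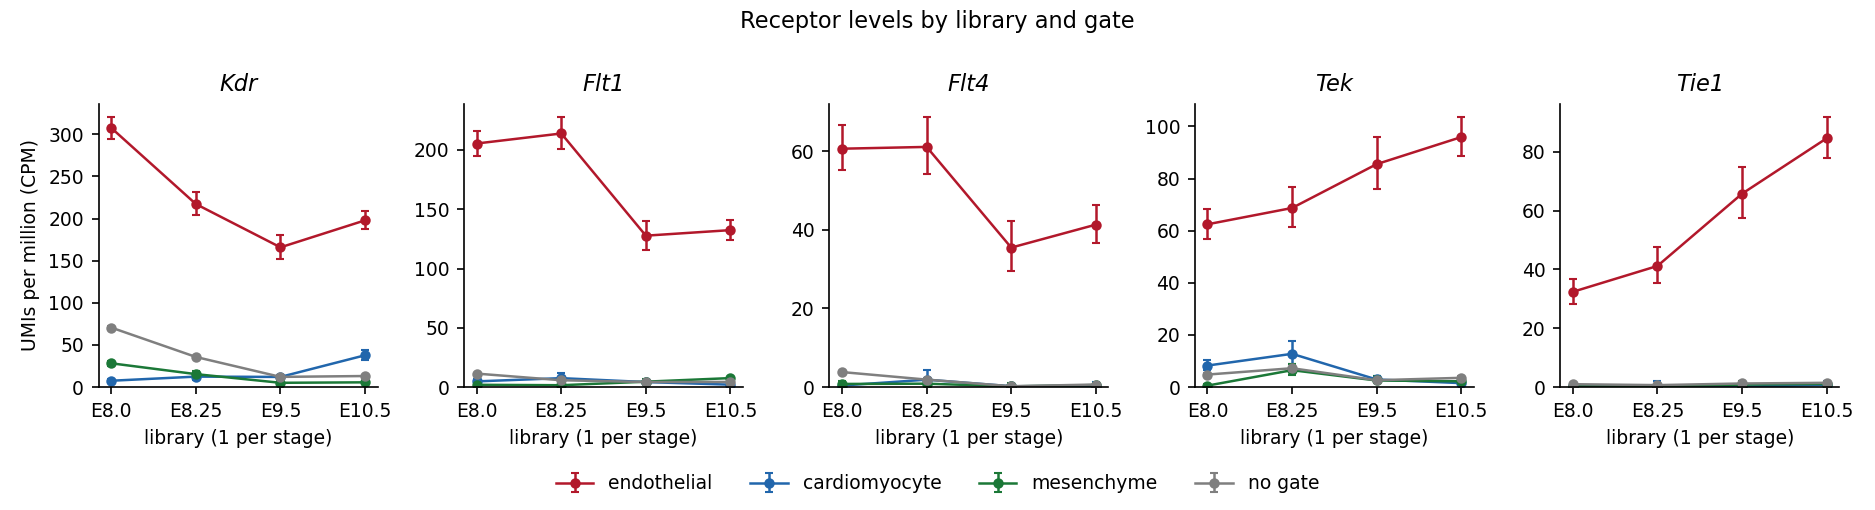
Levels of the 5 receptors (vertical axis, CPM of summed UMIs, each panel on its own scale) in the 4 libraries (horizontal axis), by gate, with exact 95% Poisson intervals for counting error. The endothelial line (red) lay above the cardiomyocyte, mesenchyme and ungated lines in every library and panel, Kdr started at 307 CPM and Tie1 ended at 84.6 CPM.

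Within the endothelial gate the VEGF receptors and the angiopoietin receptors ran in opposite directions over the stages. Kdr, Flt1 and Flt4 were lower in the late pair than in the early pair, and Tek and Tie1 were higher. From E8.0 to E10.5 the log2 ratio was -0.64 (95% interval -0.73 to -0.54) for Kdr, -0.63 (95% interval -0.76 to -0.51) for Flt1 and -0.55 (95% interval -0.77 to -0.33) for Flt4. For Tek it was 0.62 (95% interval 0.44 to 0.79) and for Tie1 1.38 (95% interval 1.16 to 1.61). Neighbouring stages did not always differ beyond counting error: for Flt1 and Flt4 the interval included 0 from E8.0 to E8.25 (log2 ratio 0.06 (95% interval -0.06 to 0.18) and 0.01 (95% interval -0.21 to 0.23)) and again from E9.5 to E10.5 (0.05 (95% interval -0.11 to 0.22) and 0.22 (95% interval -0.09 to 0.54)), and their lower late levels set in between E8.25 and E9.5, where the dissected region also changed. Tie1 was higher at each stage than at the one before, by 0.35 (95% interval 0.06 to 0.63), 0.67 (95% interval 0.39 to 0.96) and 0.36 (95% interval 0.14 to 0.59) on the log2 scale. Kdr had its lowest value at E9.5 and stood 0.25 (95% interval 0.11 to 0.40) higher at E10.5. None of these shifts reached the fold of 2 in both late against both early libraries, a pattern that 4.1% of the tested genes showed upward and 1.53% downward in this gate, and the intervals hold no variation between embryos or preparations. For Kdr and Tek the early and late pairs overlapped in cells with 6 to 8 endothelial markers raised, as given below.

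The endothelial gate held a similar share of kept cells in each library (5.11%, 5.48%, 5.13% and 4.94%). Over all kept cells Kdr was counted at 73.4, 36.9, 18.9 and 19.0 CPM, a steeper fall than in the endothelial gate, and cells in no gate, held Kdr at 70.5, 35.7, 12 and 13.1 CPM. Flt1 stood at 19.3, 13.9, 10.7 and 11.2, Flt4 at 6.02, 4.33, 1.93 and 2.69, Tek at 7.36, 9.28, 6.91 and 8.04 and Tie1 at 2.37, 2.40, 4.22 and 5.55 CPM over all kept cells. In such sums fewer cells of a type and less RNA per cell cannot be told apart. Blood cells made up 1.67%, 11.1%, 0.0510% and 13.5% of kept cells, and without them Kdr was 75.2, 43.1, 18.9 and 24.0 CPM. Over all kept cells no receptor was at least 2-fold higher or lower in both late libraries, where 4.68% of genes were higher and 1.08% lower.

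Grouping cells by the number of endothelial markers raised, in place of 1 gate, showed how each receptor's level went with that number. The number is a count of detected markers in unthinned cells, and an order of onset was not tested. At E8.0, cells with 2 markers raised held Kdr at 247 CPM, near the 301 CPM of cells with 6 to 8 markers, whereas Tie1 was 4.55 CPM with 2 markers and 42.7 with 6 to 8. Even cells with no endothelial marker raised had 39.3 CPM of Kdr at E8.0 and 26.3 at E8.25, against 9.11 at E9.5 and 8.85 at E10.5. At E10.5 Kdr was instead higher with each further marker, from 38.4 CPM with 2 to 214 CPM with 6 to 8 at E10.5. Flt4 was 0 UMIs in the 27 cells with 3 markers at E9.5 and 46.0 CPM in those with 6 to 8. Tie1 with 6 to 8 markers was higher at each later stage, as in the gate, from 42.7 and 57.3 to 69.8 and 90.0 CPM. In the same cells Flt1 (224, 244, 144 and 142 CPM) and Flt4 (62.8, 63.1, 46.0 and 44.4 CPM) were lower late, as in the gate. Kdr (301, 208, 191 and 214 CPM) and Tek (74.3, 82.6, 78.2 and 95.1 CPM) had overlapping early and late pairs, unlike in the gate. This grouping was added after the data were seen.

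**Figure D2:**
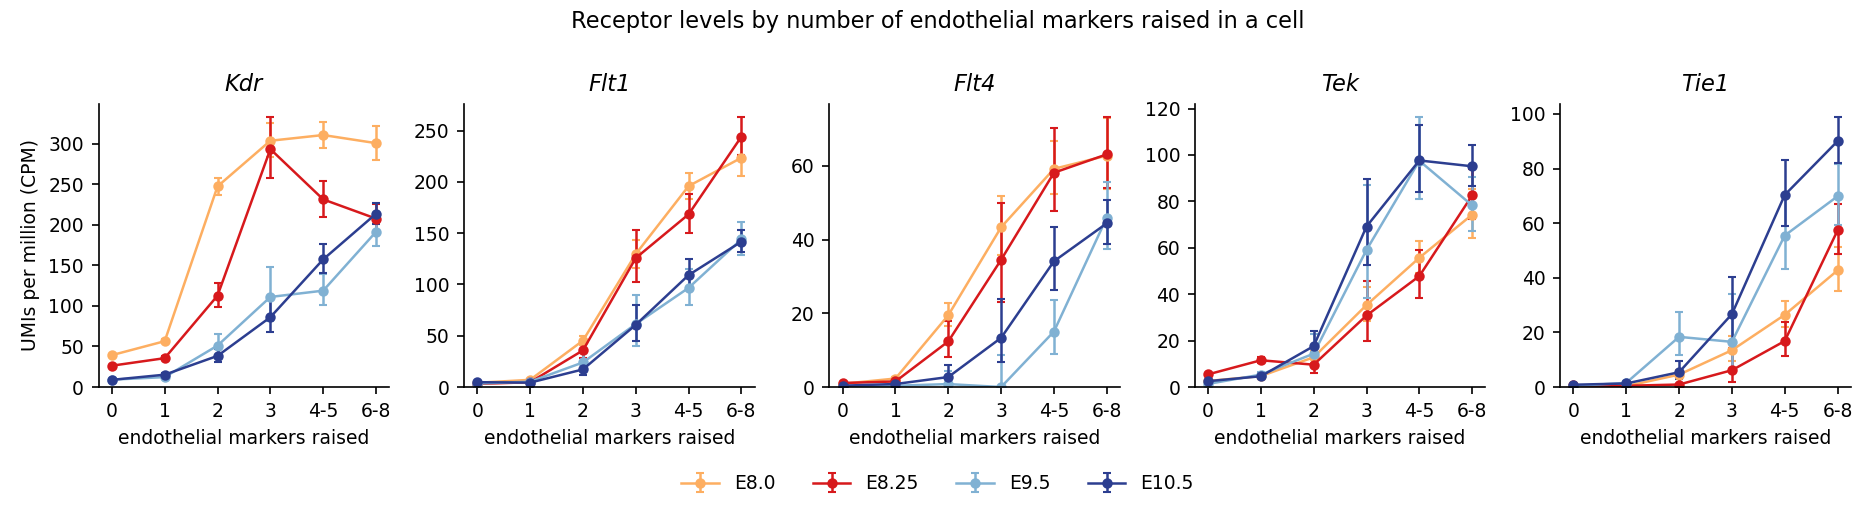
Receptor levels (vertical axis, CPM, each panel on its own scale) in cells grouped by how many of 8 endothelial markers were raised (horizontal axis), 1 line per library, with exact 95% Poisson intervals, blood cells left out. Kdr at E8.0 was at 247 CPM with 2 markers, while Tie1 was highest with 6 to 8 markers in all 4 libraries.

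Few endothelial cells had a UMI of all 5 receptors after thinning, which lowers the detection of each. After each cell was thinned to 8000 UMIs, with shallower cells left out, 88.6% of 333 endothelial cells at E8.0 had a Kdr UMI, and the shares at the 4 stages were 88.6%, 80.9%, 62.4% and 69.7% (98.6%, 96.2%, 77.6% and 81.2% without thinning). For Tie1 they were 26.1%, 32.5%, 38.2% and 45.4% (42.6%, 61.4%, 56.2% and 72.0% without thinning), so the thinned share moved with the level for both genes. In blood cells thinned shares at E8.0, E8.25 and E10.5 were 0.855%, 2.52% and 0.921% for Kdr and 0.855%, 0.943% and 0.409% for Tie1, at a median depth before thinning of 34124, 52460.5 and 28609 UMIs against 20938, 28450 and 18756 in the endothelial gate. At 8000 UMIs, 3.0%, 1.9%, 1.1% and 3.3% of endothelial cells had a UMI of all 5 receptors, and 0.30%, 2.5%, 9.7% and 1.8% had none. A receptor without a UMI at that depth may still be expressed, and joint expression in a cell was not tested. In all 20 pairs of receptor and library the share was higher in the endothelial gate than in the cardiomyocyte and mesenchyme gates, thinned or not.

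Receptor counts outside the endothelial gate followed the gene and the stage. In the mesenchyme gate Kdr (28.2 CPM at its highest and 5.02 at its lowest) was the only receptor at least 2-fold lower there in both late libraries (1.28% of genes), while Flt1 was the only receptor at least 2-fold higher (4.61% of genes). In the cardiomyocyte gate Tek was at least 2-fold lower in both late libraries (1.26% of genes) and no receptor was that much higher (4% of genes). Kdr in cardiomyocytes was 37.7 CPM at E10.5 (interval 31.9 to 44.2), above 7.47 CPM at E8.0, 12.4 at E8.25 and 12 at E9.5. Cardiomyocytes of that library with no endothelial marker raised held 31.6 CPM over 202 cells, and those with 1 or more held 67.1 CPM over 49 cells.

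The endothelial excess of Flt1 over mesenchyme was smaller in the late libraries. Flt1 in mesenchyme went from 1.88 and 1.53 CPM to 4.52 and 7.55 CPM, and the endothelial level was lower in both late libraries. The late-minus-early difference of that excess was -2.55 ± 0.38 (SE) on the log2 scale (adjusted p = 0.00848, edgeR), and it was the only member among those called, which were 1.42% of genes upward and 1.95% downward. Without the E8.0 library the adjusted p was 0.150 and without the E8.25 library 0.0775, with the difference at −2.77 and −2.40 (the early side then rests on 1 library, which is assumed to vary like the others). Mesenchyme cells at E10.5 with no endothelial marker raised held 8.28 CPM of Flt1 (179 UMIs in 1478 cells), against 3.92 CPM in those with 1 or more, and blood cells held 0.537 CPM. At E9.5 the order was the reverse, with 3.23 CPM (15 UMIs) against 9.05 CPM (12 UMIs). The early libraries held 1.29 against 2.80 CPM at E8.0 and 1.55 against 1.49 CPM at E8.25. Summed endothelial markers in the mesenchyme gate were 114 and 126 CPM at E8.0 and E8.25 and 73.7 and 72.0 CPM at E9.5 and E10.5. The part of endothelial transcripts in the Flt1 counts of this gate was not tested. Kdr moved the other way, with the endothelial excess 1.63 ± 0.47 (SE) larger late, but this was not called (adjusted p = 0.107) except without the E9.5 library (adjusted p = 0.0237) or without the filter on low counts (adjusted p = 1.33e-12). Flt4, Tek and Tie1 differed by 0.30 ± 0.54, 0.65 ± 0.74 and -0.98 ± 0.59 (SE) and were not called. Of the ligands Vegfc differed by 1.5 ± 0.41 (SE, adjusted p = 0.0935) and Vegfa by -1.12 ± 0.34 (adjusted p = 0.124), neither called except without the filter on low counts (adjusted p = 4.87e-06 and 0.0342). Angpt1 and Angpt2 differed by -0.86 ± 1.06 and -1.30 ± 0.65 (SE) and were not called.

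The ligands had no common compartment pattern, and only Angpt1 was called lower in the endothelial gate than in both other gates. Of the 4, 2 were called lower in the endothelial than in the cardiomyocyte gate (21.6% of genes), 1 lower than in the mesenchyme gate (18.6% of genes) and none higher in either. Their median log2 fold change was −0.97 against cardiomyocytes and −0.63 against mesenchyme.

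Vegfa, the ligand of Kdr and Flt1, had UMIs in the 3 main gates of every library. Over all kept cells it stood at 29.1, 4.39, 5.61 and 15.7 CPM, high at both ends of the series and low between them. Blood cells held 5.0, 1.98 and 1.72 CPM at E8.0, E8.25 and E10.5, beside 13.0, 5.20 and 7.65 CPM in the endothelial gate. Its level at E8.25 was lower than at E8.0 by 6.64-fold, where 3.53% of genes were at least 2-fold lower, and it was lower in all gates, by 2.51-fold in the endothelial, 4.76-fold in the cardiomyocyte and 2.49-fold in the mesenchyme gate. These 2 libraries share the dissected region, but each is 1 preparation, so stage and library cannot be told apart. Cells in no gate held 32.7, 4.72, 5.14 and 19.6 CPM, and 88.8% of Vegfa UMIs at E8.0 lay in them beside 79.0% of all UMIs.

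In the endothelial gate Vegfa was 13.0, 5.20, 2.91 and 7.65 CPM, in the cardiomyocyte gate 23.2, 4.87, 8.29 and 27.7 and in the mesenchyme gate 15.7, 6.30, 6.03 and 21.5 CPM. At E10.5 cardiomyocytes and mesenchyme both exceeded endothelial cells, with intervals of 22.8 to 33.4 and 19.7 to 23.3 against 5.71 to 10.0 CPM, while at E8.25 the 3 gates overlapped. The endothelial level was called lower than the cardiomyocyte level (log2 fold change -1.04 ± 0.27 (SE), adjusted p = 0.0115, lower in 3 of 4 libraries), a call that was lost without the E9.5 library (adjusted p = 0.0630), without the E10.5 library (0.0594) and without the replicate block (0.232). Against mesenchyme it was not called (log2 fold change -0.64 ± 0.27 (SE), adjusted p = 0.0829, lower in 4 of 4 libraries), except with cells thinned to 8000 UMIs (adjusted p = 0.0274).

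Vegfc, the ligand of Flt4, was 19.9, 23.9, 12.1 and 14.5 CPM over all kept cells. The endothelial gate held 10.2, 12.1, 15.4 and 21.0 CPM and the cardiomyocyte gate 6.57, 16.9, 9.19 and 29.2 CPM, both with their highest value at E10.5. In mesenchyme the order differed, with 26.2, 33.9, 13.2 and 21.1 CPM and the highest values early. At E8.0 the mesenchyme interval (23.5 to 29.2 CPM) lay above that of endothelial cells (7.98 to 12.8) and at E10.5 these intervals met (19.4 to 23.0 and 17.7 to 24.8). Blood cells held 2.0, 2.57 and 0.573 CPM in the 3 libraries where that gate could be used. Neither endothelial comparison was called, with log2 fold changes of 0.10 ± 0.37 (SE) against cardiomyocytes (adjusted p = 0.855, edgeR) and -0.62 ± 0.36 against mesenchyme (adjusted p = 0.199).

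Angpt1, the agonist of Tek, was nearly absent from endothelial cells and highest in cardiomyocytes. The cardiomyocyte gate held 17.3, 34.1, 70.0 and 58.4 CPM, the mesenchyme gate 3.06, 3.23, 17.7 and 29.7 CPM and the endothelial gate 0.412, 0.433, 1.16 and 2.21 CPM, which were 3, 2, 4 and 15 UMIs. In blood it was 0, 0.817 and 0.609 CPM in the 3 usable libraries. Cardiomyocytes were above mesenchyme in 4 of 4 libraries and both were above endothelial cells in 4 of 4. The gap between cardiomyocytes and endothelial cells was called (log2 fold change -5.47 ± 0.41 (SE), adjusted p = 7.91e-06), as was that between mesenchyme and endothelial cells (log2 fold change -3.36 ± 0.43 (SE), adjusted p = 2.63e-04), both under all 14 alternative settings. Cardiomyocytes also exceeded mesenchyme (log2 fold change 2.11 ± 0.29 (SE), adjusted p = 7.43e-04), which held in 13 of 14 settings and was lost without the replicate block (adjusted p = 0.111).

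Angpt1 was the only member at least 2-fold higher in both late than in both early libraries over all kept cells, at 3.50, 4.92, 18.7 and 14.2 CPM. In mesenchyme the lowest late level was 5.49 times the highest early one, the larger of the 2 ligand steps there, and in cardiomyocytes it was 1.71 times. After thinning, 12.4%, 20.7%, 33.8% and 26.9% of cardiomyocytes had an Angpt1 UMI (24.0%, 45.1%, 49.0% and 37.8% without thinning), against 0%, 0.637%, 0.538% and 1.48% of endothelial cells (0.824%, 1.27%, 1.99% and 3.76% without thinning), and of 333 thinned endothelial cells at E8.0 none had one at that depth. A count of 0 there allows a share of cells with a UMI of up to 0.901% (3 counts of the total; the exact upper bound is 1.10%), and says nothing of cells with fewer transcripts than the depth can show. In blood cells the thinned share was 0.314% at E8.25 and 0.409% at E10.5, at the depths given above.

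Angpt2, the context-dependent ligand, was low in every gate. Its level was 2.33, 3.03, 4.65 and 2.5 CPM in endothelial cells, 4.25, 5.62, 4.89 and 9.99 CPM in cardiomyocytes and 1.57, 1.36, 5.02 and 4.62 CPM in mesenchyme, and the intervals of the endothelial and cardiomyocyte gates overlapped at E8.0, E8.25 and E9.5 but not at E10.5 (1.46 to 4.0 against 7.13 to 13.6 CPM). Blood cells held 1.75, 1.05 and 0.681 CPM in the same 3 libraries. The endothelial gate was not called against cardiomyocytes (log2 fold change -0.90 ± 0.37 (SE), adjusted p = 0.0755) or mesenchyme (log2 fold change 0.16 ± 0.37 (SE), adjusted p = 0.760), and the first of these was called in 3 of 14 alternative settings, over which its adjusted p ran from 0.0194 to 0.328. Cardiomyocytes were called above mesenchyme (log2 fold change 1.06 ± 0.35 (SE), adjusted p = 0.0413), but in 7 of 14 alternative settings this was lost, with an adjusted p from 0.0142 to 0.158 and losses without the E8.0, E8.25 or E10.5 library among them. Together with Angpt1 it was 1 of 2 ligands at least 2-fold higher in mesenchyme of both late libraries, from 1.57 and 1.36 to 5.02 and 4.62 CPM.

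**Figure D3:**
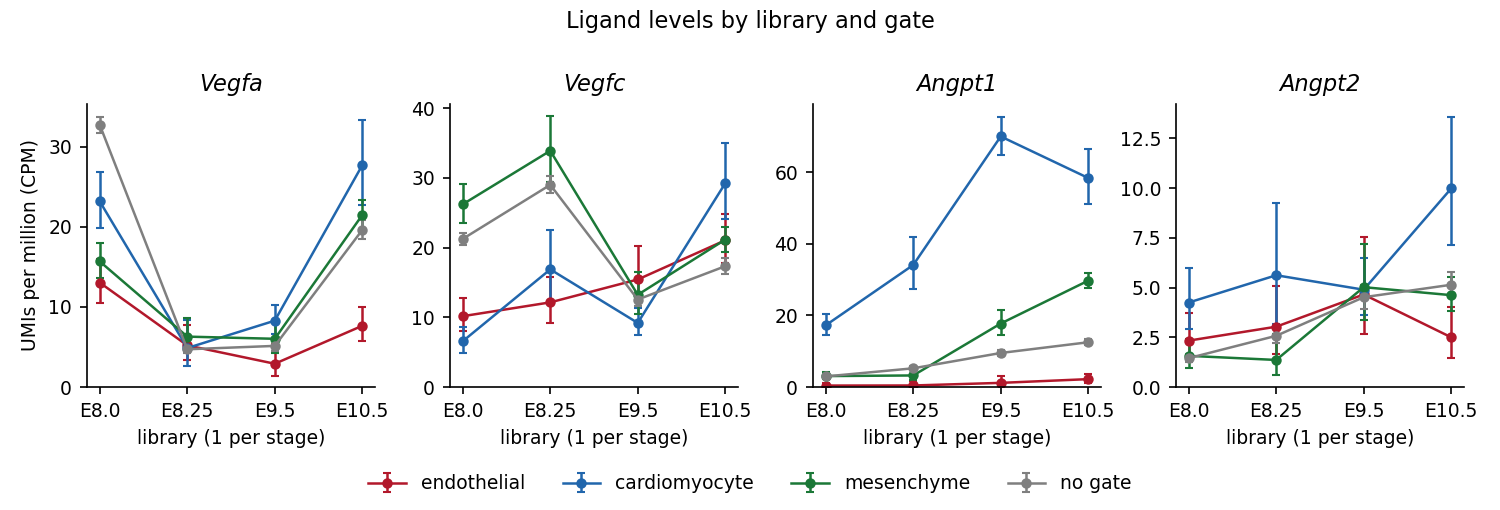
Levels of the 4 ligands (vertical axis, CPM of summed UMIs, each panel on its own scale) in the 4 libraries (horizontal axis), by gate, with exact 95% Poisson intervals for counting error. Angpt1 in cardiomyocytes (blue) went from 17.3 to 58.4 CPM while the endothelial line (red) stayed at or below 2.21 CPM, and Vegfa was lowest at E8.25 or E9.5 in all gates.

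Set against each other, receptors and ligands divided the libraries in different ways. The endothelial gate held 4.4% to 5.3% of all UMIs in a library. Of the Tie1 UMIs it held 65.7%, 74.8%, 75.8% and 81.0%, and of the Flt4 UMIs 48.4%, 61.4%, 89.7% and 81.7%. For Kdr the share was smaller early and larger at each later stage, with 20.1%, 25.6%, 42.7% and 55.3%. Of the ligands the endothelial gate held at most 7.7% of the UMIs in any library, and for Angpt1 0.30% to 0.83%. The 7.7% was that of Vegfc at E10.5, where the gate held 5.3% of all UMIs. The cardiomyocyte gate held 53.1% of Angpt1 UMIs at E9.5, beside 14.2% of all UMIs, and the mesenchyme gate 42.6% at E10.5, beside 20.3% of all UMIs.

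**Figure D4:**
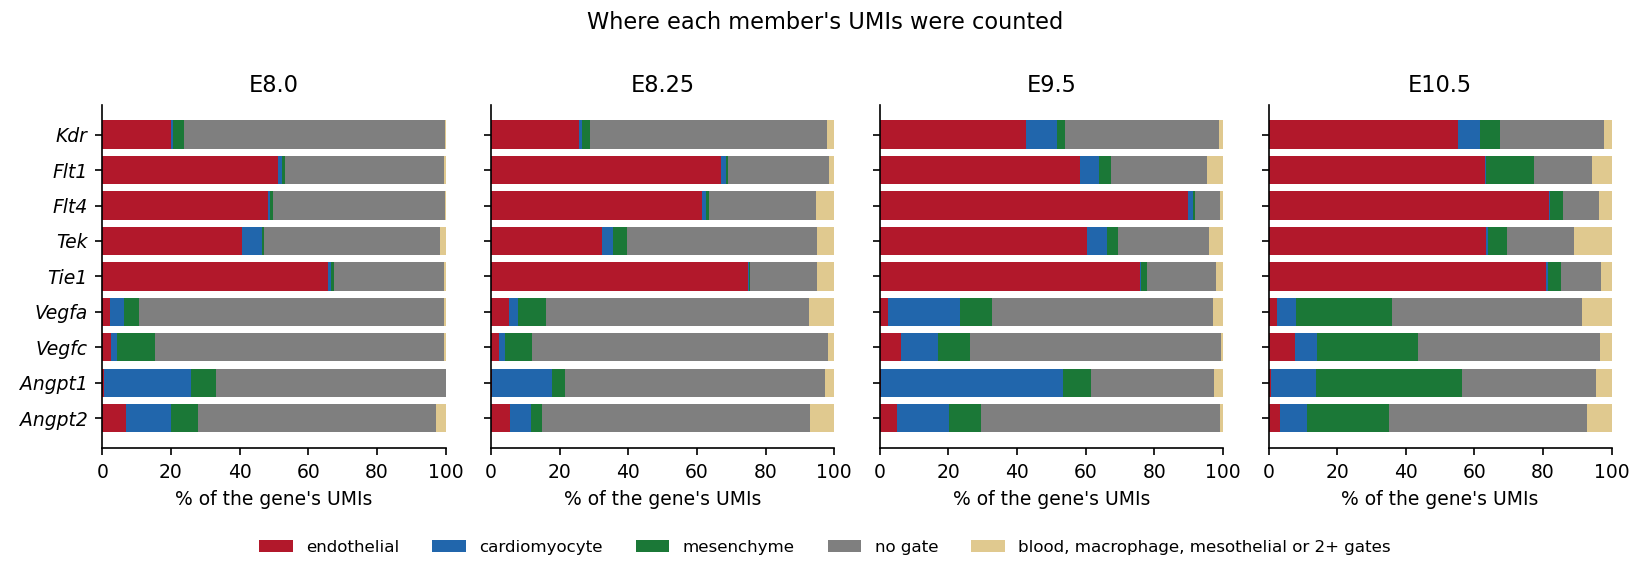
Share of each member's UMIs (horizontal axis, percent) that was counted in each gate, 1 panel per library, receptors above and ligands below, with cells outside the 3 main gates in grey and sand. The endothelial share (red) was 65.7% to 81.0% for Tie1 and 20.1% to 55.3% for Kdr, and at most 7.7% for any ligand.

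Between cardiomyocytes and mesenchyme none of the 5 receptors was called in either direction, where 17.6% of genes were called higher and 15.2% lower in cardiomyocytes, and the largest difference was that of Tek (log2 fold change 1.30 ± 0.64 (SE), adjusted p = 0.146, called only with gates of 1 marker fewer, at 1.83 and adjusted p = 0.0416). Of the ligands Angpt1 and Angpt2 were called higher in cardiomyocytes, as given above. Vegfa (log2 fold change 0.40 ± 0.25 (SE), adjusted p = 0.241) and Vegfc (log2 fold change -0.72 ± 0.36 (SE), adjusted p = 0.156) were not, and Vegfc was called lower in cardiomyocytes without the E10.5 library (−1.19, adjusted p = 0.0394).

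**Figure D5:**
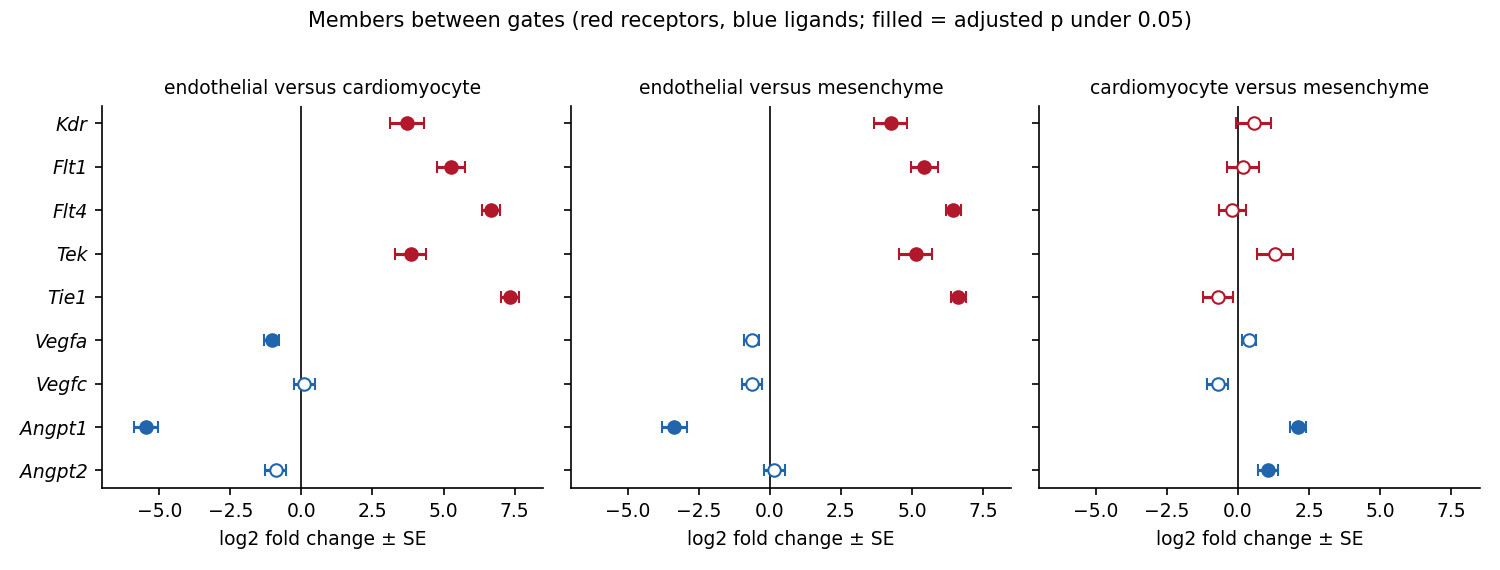
Fitted log2 fold changes (horizontal axis, ± SE) of the 9 members in 3 comparisons of gates over the 4 libraries, with filled points called at an adjusted p under 0.05. All 5 receptors (red) lay between 3.71 and 7.34 in both endothelial comparisons and none was called between cardiomyocytes and mesenchyme, and Angpt1 was the ligand (blue) farthest from 0 in each panel.

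Splitting the endothelial gate by a detected UMI of Nfatc1, which marks endocardium, gave no call for any of the 7 members tested. Of the genes tested in this split, 0.372% were called higher and 0.0338% lower in cells with Nfatc1. After thinning, 52, 20, 49 and 75 cells had an Nfatc1 UMI, and 281, 137, 137 and 262 had none. A cell without an Nfatc1 UMI at that depth may still express it, so the group without Nfatc1 can hold endocardial cells. Whether endocardium and other endothelium differ in the members was therefore not tested. Tek was 80.3, 71.2, 115 and 115 CPM with and 58.0, 68.5, 69.7 and 90.3 CPM without Nfatc1, and Tie1 39.2, 47.5, 84.1 and 99.9 and 30.8, 40.1, 59.7 and 77.2 CPM, both higher with Nfatc1 in 4 of 4 libraries (0.41 ± 0.11 and 0.37 ± 0.11 log2 ± SE, adjusted p = 0.200 and 0.261, edgeR). Flt4 was 59.8 against 59.5 CPM at E8.0 and 78.0 against 58.5 CPM at E8.25, and lower with Nfatc1 in both late libraries, at 19.0 against 36.8 CPM at E9.5 and 18.2 against 46.0 CPM at E10.5, which was not called over the 4 libraries (adjusted p = 0.658, edgeR). Cells with Etv2 detected, the haematoendothelial factor, numbered 1579 at E8.0 and held Kdr at 205 CPM, Flt1 at 48.7, Tek at 13.9 and Tie1 at 5.02 CPM, while the 179 such cells at E10.5 held 166, 55.5, 47.5 and 34.5 CPM.

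Of 43 other genes of the pathway, 39 were tested, and in the endothelial gate 23 were higher and 4 lower than in cardiomyocytes and 24 higher and 4 lower than in mesenchyme. Over all genes tested 22.9% were higher and 21.6% lower in the first comparison and 21.7% and 18.6% in the second. The median log2 fold change of the 39 was 1.36 and 1.32. Angpt4, Adamts3, Dok2 and Egr3 had too few counts to test. Between cardiomyocytes and mesenchyme 3 were higher and 4 lower of the 39, a smaller share in each direction than the 17.6% and 15.2% of all genes.

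All 8 endothelial transcription factors on the list were higher in endothelial cells than in both other compartments. The ETS factors followed different courses by stage, with Etv2 at 403, 276, 122 and 61.6 CPM, Fli1 at 279, 181, 110.3 and 88.7 and Erg at 36.6, 28.4, 32.3 and 30.3 CPM in the endothelial gate, so that Etv2 and Fli1 were lower at each later stage while Erg stayed in a narrow range. Fli1 in mesenchyme was 9.49, 11.1, 29.6 and 56.7 CPM, and its endothelial excess was called smaller late (log2 fold change -3.33 ± 0.39 (SE), adjusted p = 0.00310), as was that of Gata2 (log2 fold change -1.99 ± 0.45 (SE), adjusted p = 0.0429). Sox7, Sox17 and Sox18 exceeded cardiomyocytes by 7.40, 7.62 and 7.19 log2 units.

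The co-receptors split by breadth. Eng, Plxnd1 and Ptprb were higher in endothelial cells than in cardiomyocytes (6.31, 5.19 and 5.71 log2) and than in mesenchyme. Ptprb, the phosphatase that acts on Tek, was counted in the endothelial gate at 9.06, 10.8, 32.6 and 26.0 CPM, higher in both late libraries as Tek was. Nrp1, the Vegfa co-receptor, was not called against cardiomyocytes (-0.39 ± 0.23 SE, adjusted p = 0.196, edgeR), was higher in endothelial cells than in mesenchyme (0.95) and higher in cardiomyocytes than in mesenchyme (1.34). Nrp2, which pairs with Flt4, was called in no comparison.

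No further ligand or ligand-processing gene was higher in endothelial cells. Pgf, a ligand of Flt1, was lower there than in cardiomyocytes (-2.06) and mesenchyme (-2.31), and so were the matrix protein gene Svep1 (-3.05 and -3.42) and Ccbe1 (-3.82 and -3.71), whose product helps to process Vegfc. Figf, the Flt4 ligand VEGF-D, was lower in endothelial cells than in mesenchyme only (-3.60) and stood at 2.82, 5.79, 7.70 and 3.08 CPM in mesenchyme. Vegfb, another ligand of Flt1, was not called.

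Among signal carriers and response genes none was called lower in endothelial cells, and not all were called higher. Of the signal carriers 7 of 11 were higher in endothelial cells than in cardiomyocytes and 6 of 11 than in mesenchyme, beside 22.9% and 21.7% of all genes, among them Nos3 (4.95 and 5.08) and Foxo1 (3.13 and 1.41), while Pik3ca was called in neither. Of 5 response genes tested, Dll4 (8.55), Esm1 (8.84) and Apln (3.44) were higher than in cardiomyocytes. Against mesenchyme 4 of the 5 were higher, these 3 and Dusp5, with a median log2 fold change of 2.99 over the 5. Rcan1 was not called in either comparison. Of the oxygen regulators Epas1 (2.91 and 3.54) and Egln3 (2.63 and 2.67) were higher in endothelial cells than in both, and Hif1a, a regulator of Vegfa, was lower than in cardiomyocytes (-0.42) and higher in cardiomyocytes than in mesenchyme (0.68). Mapk3 and Rcan1 were the 2 pathway genes whose endothelial level relative to mesenchyme was called higher late, though Rcan1 had no called excess over the 4 libraries. Etv2 was the one pathway gene called by Nfatc1, lower in cells with it (-0.45).

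Over the 12 sums of library and gate, the genes most like each receptor by Pearson's r of log2(CPM + 10) are given as a description only, as the 12 points share 4 libraries and the 3 gates set most of the spread. For Flt1 they were Gata2, Exoc3l and Flt4 (r = 0.994 to 0.996), for Flt4 Exoc3l, Nrros and Sox7 (0.996 to 0.997), for Tie1 Tfec, Plxnd1 and Gimap4 (0.996 to 0.998), for Tek Ecscr, Lyl1 and Smagp (0.977 to 0.982) and for Kdr Lcp1, Ppp1r13b and Myzap (0.97). Among the receptors themselves r ran from 0.893 (Kdr and Tek) to 0.994 (Flt1 and Flt4). Angpt1 was most like Wscd2, Tceal5 and Lag3 (0.964 to 0.986), and its r with each receptor lay between −0.71 and −0.67. Angpt2 (Mroh1, Kcnq5 and Trpt1, 0.906 to 0.920), Vegfa (Mrpl52, Cep170b and Fam178a, 0.915 to 0.946) and Vegfc (Gtpbp8, Cthrc1 and Rab10os, 0.832 to 0.871) had lower likeness at the top, and the r of Vegfa with Vegfc was 0.10.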

How the data were processed

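Live GFP-positive cells were captured with the 10x Chromium Single Cell 3′ v2 kit, and the authors aligned reads with Cell Ranger 3.1.0 to mm10. The deposited files hold raw UMI counts per gene and cell (filtered barcodes, 7581, 2956, 4055 and 8070 cells, and 74920880 to 168407965 UMIs a library), with no normalization. Because the 3′ end alone is tagged, levels are not compared between genes.

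From these counts, cells with under 1000 genes or over 10% mitochondrial UMIs were removed, and doublets at 0.8% per 1000 cells by Scrublet score (scanpy 1.11.5). Gates needed at least 4 of 8 markers raised (blood 5 of 6, macrophage 4 of 6, mesothelial 3 of 6), set from the markers' distribution. Cells opening 2 or more gates were kept out. UMIs were summed by library and gate (12 sums) and tested with edgeR 4.0.16 (filterByExpr, TMM, quasi-likelihood, library as block), with Benjamini-Hochberg adjustment over the tested genes, the 42 gate genes left out, called at 0.05. The SE given with an edgeR log2 fold change is its absolute value divided by the square root of the F statistic of the test. Sums of the same library deviated together (r = 0.41 to 0.60), so the library pairs them. The Nfatc1 split used cells thinned to 8000 UMIs. Levels are CPM with exact Poisson intervals and shares carry exact Clopper-Pearson bounds in the tables, neither covering variation between embryos. On simulated counts with 200 changed genes, 61.9% (endothelial against cardiomyocyte) and 62.9% (endothelial against mesenchyme) of changes of 1 log2 unit and 100% of those of 2 were called, with 11596 genes in the fit. The simulation gave every gene the same spread between sums, so these rates need not hold for the real counts. The named genes are the 9 members, the 43 listed pathway genes and, for each member, the 3 genes of highest correlation over the 12 sums. Alternatives were DESeq2 1.42.0, RLE scaling, no filter on low counts, no block, 2 compartments only, gates of 1 marker more or fewer, no doublet removal, no cell filter, thinning, and each library left out. Members and lists were chosen with earlier results of these data known.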

Additional observations from a re-analysis of the deposited data

Results flagged for a closer look

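The difference of Flt1 between the endothelial and mesenchyme gates was itself different between the late and the early libraries, by −2.55 on the log2 scale, in a test of that interaction (adjusted p = 0.00848, edgeR). Flt1 in mesenchyme was 1.88, 1.53, 4.52 and 7.55 CPM and in endothelial cells 205, 214, 128 and 132 CPM in stage order. Each side of this comparison holds 2 libraries, region and stage change together, and the adjusted p was 0.150 and 0.0775 without the E8.0 and the E8.25 library.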

How the results depend on the processing

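Without the replicate block, which drops the library term, 2993, 2764 and 1383 genes were called between endothelial and cardiomyocyte, endothelial and mesenchyme, and cardiomyocyte and mesenchyme gates, against 5216, 4729 and 3855 with it. Leaving out 1 library gave 2255 (without E9.5) to 2990 calls in the last of these. For the late-minus-early difference 395 genes were called, 1100 with no filter on low counts and 22 (without E8.0) to 553 when 1 library was left out. For the Nfatc1 split 36 genes were called, 10 by DESeq2, 338 with no filter, 1 (without E10.5) to 135 (without E8.0) when 1 library was left out, and 0 by edgeR without the replicate block; 865 genes had an unadjusted p under 0.05 with the block. With gates of 1 marker fewer, 1 member in place of 0 was past the 2-fold rule upward in cardiomyocytes. The receptors and Angpt1 kept their direction and call against endothelial cells under all 14 settings. Differences that were not called changed sign as follows (log2, with the range over libraries left out). Between endothelial and cardiomyocyte gates Vegfc ran from −0.116 (without E9.5) to 0.345. Between endothelial and mesenchyme gates Angpt2 was −0.0658 with gates of 1 marker more and −0.0921 with thinned cells, and ran from −0.0764 (without E8.25) to 0.519. Between cardiomyocyte and mesenchyme gates Flt1 was −0.739 with gates of 1 marker more and ran from −0.202 (without E8.25) to 1.08, Flt4 was 0.0384 with gates of 1 marker more and 0.172 with no doublet removal and ran from −0.809 to 0.143 (without E8.0), Tie1 ran from −1.19 to 0.00981 (without E9.5), and Kdr from −0.430 (without E10.5) to 1.41. Tek in the late-minus-early difference ran from −1.46 (without E8.25) to 1.91. By Nfatc1, Vegfc was 0.00792 without the replicate block and ran from −0.297 to 0.0811, and Flt1 ran from −0.000873 (without E8.25) to 0.156. Of 72 log2 ratios of E10.5 to E8.0 under other settings, 57 moved by less than their interval, 14 moved by more, and Vegfa in mesenchyme changed sign (−0.177 with gates of 1 marker fewer). The causes were not tested. Depth limits members with few counts, such as Angpt1 in endothelial cells (2 to 15 UMIs a library).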

Other observations

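Cells of the mesothelial gate at E10.5 (157 cells, with Wt1, Upk3b and related markers) were outside the comparisons above. They held Tek at 19.5 CPM (interval 15.3 to 24.5) with 0 UMIs of Tie1 and Kdr at 1.60 CPM, and Vegfa at 24.0 CPM (interval 19.3 to 29.5). Cardiomyocytes and mesenchyme of that library held Tek at 1.5 and 2.19 CPM. At E9.5 the gate held 22 cells with 4 Tek UMIs.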
